A study of Capra hircus with 27 samples.

Results

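Skeletal muscle-enriched genes were followed here across heart, lung and skeletal muscle of domestic goats from 3 altitudes. The members were the protein-coding genes of the goat annotation with an ID that starts with GOAT_ whose mean log2(FPKM + 1) over the 9 muscle libraries was at least 3 above the larger of the heart and lung means, and whose mean in muscle was at least 5 FPKM (fragments scaled by transcript length and library size). In all, 108 genes met this rule, of 17671 with such an ID and 22131 listed, so that the limit of 150 members was not reached. Since the rule used the tissue means, differences between tissues are given as values and were not tested. Differences between altitudes within a tissue were not part of the rule, but its means ran over all 3 altitudes. A gene could thus meet it through the altitudes where it was high, so the choice and these contrasts are not fully independent. Without the 600 m, 2000 m or 3000 m libraries, 105, 101 or 107 of the 108 members were selected again. A member kept in this way can still meet the rule through only part of the altitudes, and some members named below did so.

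The samples came from goats of about 3 years of age, kept in Ya'an at 600 m, in Zhaotong at 2000 m or in A'ba at 3000 m, with 3 libraries per tissue and altitude. The methods describe 3 unrelated adult females per altitude for the 600 m and 3000 m populations, and the 2000 m animals are not described there. Altitude and population coincide in this design and cannot be told apart. No treatment was given, and the muscle that was sampled is not named in the labels.

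Skeletal muscle is built of multinucleated fibres packed with sarcomeres, the units in which myosin filaments pull on actin filaments when calcium leaves the sarcoplasmic reticulum. Its most abundant transcripts code for contractile proteins, calcium-handling proteins and enzymes that make ATP available, and fast and slow fibres use different forms of many of these proteins. Heart muscle shares part of this machinery, while lung holds smooth muscle, which has no sarcomeres. The files pair no ID with a gene symbol, and 0 IDs matched the gene table used here, so the members are given by ID and rank without a name or role. The planned marker lists for fibre types, heart, lung, fat, blood and nerve could not be applied, and the tissue labels were not checked against markers.

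The deposited values hold no counts and the absolute depth is unknown. Relative depth, estimated from the smallest FPKM steps, was between 0.815 and 0.962 for heart, 0.936 and 1.27 for lung, and 0.926 and 1.22 for muscle. Muscle replicates 1 and 2 at 600 m differed by no more than sampling noise, with a ratio of observed to sampling variance of 1.02 over 83 genes, against 2.60 to 28.3 for the other 26 replicate pairs of the series. The median absolute difference of the members between these libraries was 0.0661 on the log2 scale, against 0.229 to 0.648 in the other 8 muscle pairs. They were counted as 1 sample by their mean, which left 2 muscle samples at 600 m.

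In muscle the members formed a steep ladder of levels. Their mean over the 9 muscle libraries ran from 8.03 to 47304 FPKM with a median of 100.9 FPKM, and 19 members were at 1000 FPKM or more, 36 between 100 and 1000 FPKM and 53 below 100 FPKM. The 5 most abundant members held 67.6% of the FPKM of all 108. GOAT_ENSP00000361636 ranked first both by level and by tissue difference. Its muscle libraries were at 53811, 47070 and 27497 FPKM at 600 m, at 54233, 51410 and 59738 FPKM at 2000 m and at 39408, 44015 and 48557 FPKM at 3000 m. GOAT_ENSP00000325239 came second on both counts, with 9627, 10198 and 5537 FPKM at 600 m, 21160, 18122 and 20095 FPKM at 2000 m and 12437, 16275 and 16090 FPKM at 3000 m. For the first gene the altitudes overlapped, and for the second every library of 2000 m and 3000 m lay above those of 600 m.

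**Figure D1:**
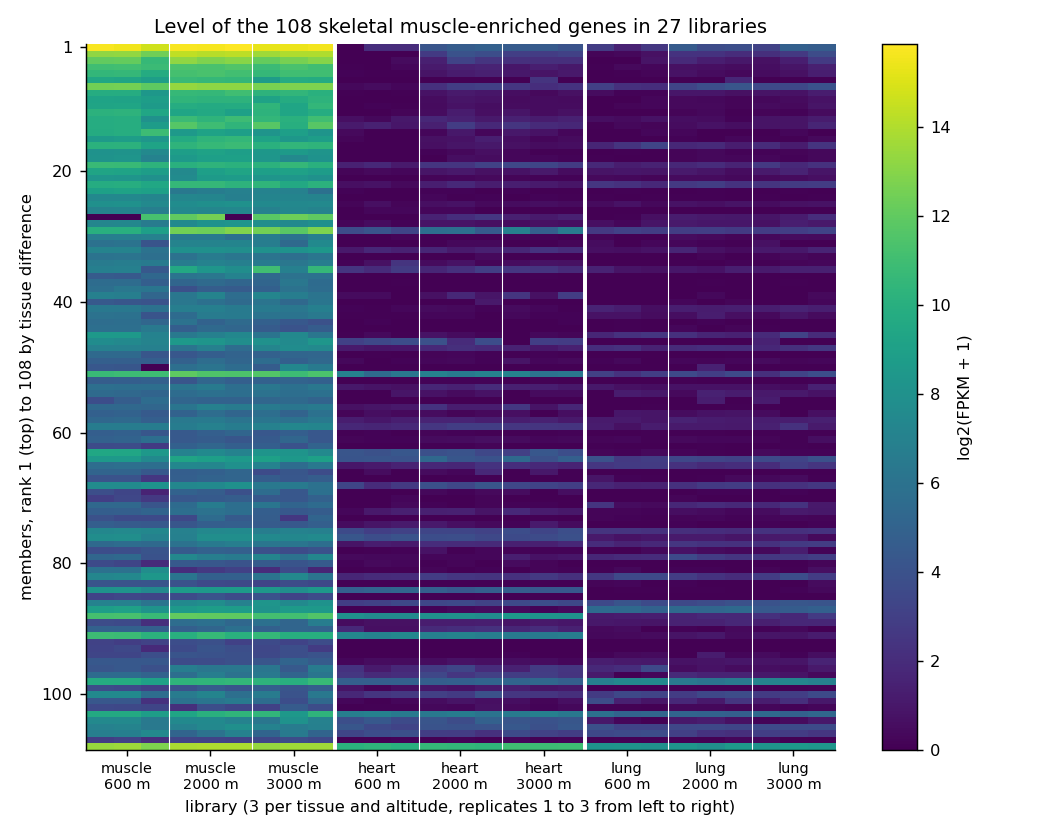
Heat map of log2(FPKM + 1) for the 108 members (rows, by falling tissue difference) in the 27 libraries (columns, grouped by tissue and altitude). Muscle columns are bright in nearly every row, whereas heart and lung columns are dark apart from single rows, among them the last row (rank 108), and 1 row near rank 27 is dark in 3 muscle libraries.

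The tissue difference that defined the members, the muscle mean of log2(FPKM + 1) minus the higher of the heart and lung means, had a median of 4.71 and a maximum of 11.98. It was at least 6 for 32 members and below 4 for 40. The last members inside the limit had differences of 3.06, 3.04 and 3.03, and the nearest genes outside it had 3.00, 2.93 and 2.90. No gene met the difference and failed the level. In 105 of 108 members every muscle library was above every heart and lung library, which follows closely from the rule. The 3 members that overlapped were GOAT_ENSP00000226209-D5, GOAT_ENSP00000250003 and GOAT_ENSP00000296486, named after their values were seen.

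Outside muscle the members were low but not uniformly so. The median of their mean levels was 0.50 FPKM in heart and 0.47 FPKM in lung, and 42 members were at 0.5 FPKM or less in both tissues. Another 23 members reached a mean of 5 FPKM or more in heart and 15 did so in lung. On the log2 scale, 64 members were higher in heart than in lung and 41 were higher in lung than in heart. GOAT_ENSP00000378669 was the highest member in both tissues and the last by rank. Its heart libraries ranged from 1077 to 2028 FPKM and its lung libraries from 229.0 to 374.7 FPKM, beside 6990 to 15595 FPKM in muscle.

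Of all FPKM of a muscle library, the members held 13.4%, 14.2% and 10.5% at 600 m, 20.3%, 22.0% and 25.4% at 2000 m and 16.5%, 19.0% and 19.999% at 3000 m. The mean share was 12.2% ± 2.31 (SD, n = 2) at 600 m, 22.6% ± 2.57 (SD, n = 3) at 2000 m and 18.5% ± 1.80 (SD, n = 3) at 3000 m. Every library of the higher altitudes therefore lay above every library of 600 m. Without the most abundant member the mean shares were 7.10%, 14.7% and 12.2%, in the same order. In heart the members held 0.223% to 0.248% at 600 m and 0.280% to 0.357% at the higher altitudes, and in lung 0.105% to 0.106% and 0.0967% to 0.144%. The heart share was largely that of GOAT_ENSP00000378669. Its mean in heart was 1168, 1424 and 1953 FPKM at 600 m, 2000 m and 3000 m, where all members summed to 1956, 2337 and 2917 FPKM. FPKM is relative to the library, and in whole tissue fewer cells of a type and less RNA per cell cannot be told apart.

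**Figure D2:**
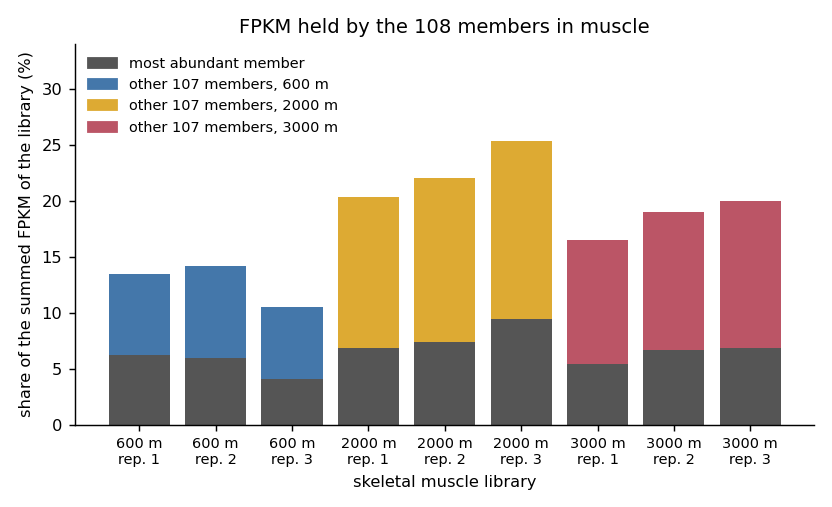
Stacked bars of the share of the summed FPKM (%, axis from 0) held by the 108 members in each muscle library, with the most abundant member in grey and the other 107 coloured by altitude. The 600 m bars end at 10.5% to 14.2% and the bars of the higher altitudes at 16.5% to 25.4%.

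The first question put to the members was whether their level in muscle differed between the high and low populations. Both comparisons with 600 m, and those in heart and lung, share the 600 m samples of the tissue. At 2000 m, 22 members were higher and 6 lower than at 600 m, so that 28 of 108 (25.9%) were called by limma at a Benjamini-Hochberg adjusted p of at most 0.05, where 5.96% of all 11904 genes tested in muscle were called, 1.95% higher and 4.01% lower. At 3000 m, 5 members were higher and 5 lower (9.26%), against 2.10% of all genes, 0.781% higher and 1.32% lower. The split at 3000 m was 7 higher and 4 lower after quantile normalization. Some of the called members met the rule through only part of the altitudes, so these counts are no support on their own. How many called members meet it at each altitude was not counted. The median difference of the members from 600 m was 0.68 at 2000 m and 0.42 at 3000 m on the log2 scale, beside -0.12 and -0.08 for all genes. A difference above 0 was found for 83 and 81 of the 108 members, beside 40.3% and 43% of all genes.

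These counts rested on single libraries, and the calls over all genes fell and rose with those of the members in each fit below. Without the 600 m replicate 3, 1 member was called at 2000 m and 0 at 3000 m, where 35 and 26 members had an unadjusted limma p below 0.05. Without the averaged 600 m sample the counts were 32 and 25. Leaving out 2000 m replicate 1, 2 or 3 gave 6, 2 and 3 called members, beside 115, 71 and 57 of all 11904 genes. Leaving out 3000 m replicate 1, 2 or 3 gave 2, 22 and 1, beside 53, 790 and 32 of all genes. Without the filter on low values 2 members were called at 2000 m and 0 at 3000 m, beside 85 and 39 of 16857 genes. Fitting only the compared groups gave 17 and 0, beside 388 and 16 of 11904. Members at an unadjusted limma p below 0.05 numbered 59 and 42 without the filter and 59 and 44 with only the compared groups. The share of all genes was not counted there. In the reported fit it was 27.2% and 22.8%, beside 56.5% and 45.4% of the members. The median difference of the members stayed above that of all genes in each fit without a sample, between 0.44 and 0.91 at 2000 m and between 0.22 and 0.59 at 3000 m.

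The order of the altitude means of each member gives the same data without a fit. In muscle, 76 of 108 members (70.4%) had their lowest mean at 600 m, beside 32.8% of all genes tested. The highest mean was at 2000 m in 61 members, beside 2843 of all 11904 genes. All 600 m samples lay below every higher library in 30 members (27.8%), beside 8.30% of all genes, and above every higher library in 6 members (5.56%), beside 14.3%. By level, 17 of the 19 members at 1000 FPKM or more had a difference above 0 at 2000 m, with a median of 1.00, while the 36 members between 100 and 1000 FPKM had a median of 0.35 and the 53 below 100 FPKM a median of 0.55. The called members came from all of these classes, with 3 higher among the first, 6 higher and 4 lower among the second, and 13 higher and 2 lower among the third.

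**Figure D3:**
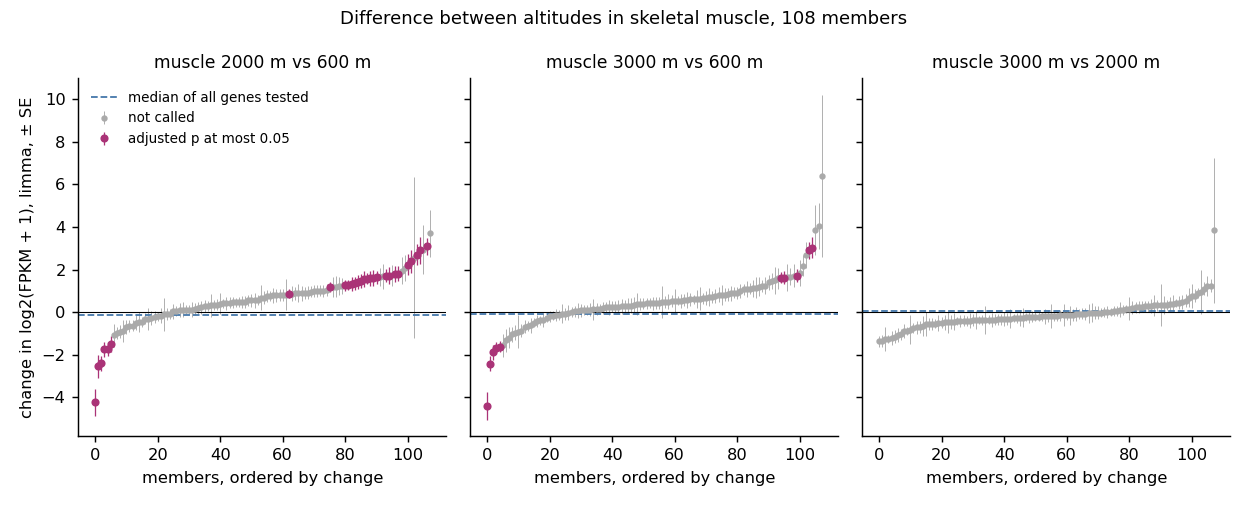
Fitted differences between altitudes in muscle (limma, log2(FPKM + 1), error bars are SE) for the 108 members, each panel ordered by size, with called members in purple and the median of all genes as a dashed line. Most points of the left and middle panels lie above 0 and the right panel, 3000 m against 2000 m, has 0 called members.

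GOAT_ENSBTAP00000047800 was among the members with the largest called rise at both altitudes. Its muscle libraries were at 1009, 1015 and 494.8 FPKM at 600 m, at 5664, 5182 and 7595 FPKM at 2000 m and at 5826, 3586 and 7160 FPKM at 3000 m. The 600 m libraries lay below all others, the higher altitudes overlapped, and the means were 8.16-fold higher at 2000 m and 7.33-fold higher at 3000 m than at 600 m. The log2 difference was 3.10 ± 0.40 (SE, adjusted p = 0.00826, limma) at 2000 m and 2.91 ± 0.40 (SE, adjusted p = 0.0139) at 3000 m. Without 600 m replicate 3 the adjusted p was 0.0591 and 0.0939, and at 3000 m it was 0.0511 without 3000 m replicate 3, 0.0685 without the filter and 0.0656 with only the compared groups. Its heart libraries were at 11.7, 16.5 and 8.95 FPKM at 600 m, 51.4, 54.3 and 21.4 FPKM at 2000 m and 123, 26.7 and 89.4 FPKM at 3000 m.

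GOAT_ENSBTAP00000009575 had the largest called rise at 3000 m. On its 600 m libraries alone its muscle mean was less than 3 above lung on the log2 scale. It met the rule through the higher altitudes, so its adjusted p is no support on its own. It was at 11.9, 10.97 and 3.46 FPKM at 600 m, at 50.0, 56.0 and 37.6 FPKM at 2000 m and at 57.9, 35.2 and 104 FPKM at 3000 m. All higher libraries were above all 600 m libraries, and the difference at 3000 m was 3.03 ± 0.50 (SE, adjusted p = 0.0256, limma). The call was lost without 600 m replicate 3 (adjusted p = 0.157), 3000 m replicate 1 (0.0693) or 3000 m replicate 3 (0.0741), without the filter (0.0847) and with only the compared groups (0.101). GOAT_ENSP00000296486, the other large rise at 2000 m, stood at 19.1, 18.7 and 3.80 FPKM at 600 m, at 60.2, 71.9 and 86.4 FPKM at 2000 m and at 47.7, 12.6 and 41.0 FPKM at 3000 m. The 2000 m libraries were above all others and 1 library of 3000 m fell within the 600 m range. On its 600 m libraries alone this member too was less than 3 above lung on the log2 scale, with the same limit on its adjusted p. The difference at 2000 m was 2.90 ± 0.64 (SE, adjusted p = 0.0368, limma), and it was not called without 2000 m replicate 1, 2 or 3 (0.0758, 0.0969 and 0.0957) or without 600 m replicate 3 (0.27) or the filter (0.0916).

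Among the falls, GOAT_ENSBTAP00000009302 had the largest at both altitudes. On its libraries of 2000 m and 3000 m alone its muscle mean was less than 3 above lung on the log2 scale. It met the rule through 600 m, where it was high, so its adjusted p-values are no support on their own. It was at 59.0, 60.1 and 214 FPKM at 600 m, at 3.21, 5.24 and 7.53 FPKM at 2000 m and at 3.10, 10.95 and 2.15 FPKM at 3000 m. No higher library reached the lowest 600 m library, and the 600 m mean was 25.7-fold that of 2000 m and 25.3-fold that of 3000 m. The log2 difference was -4.23 ± 0.64 (SE, adjusted p = 0.0156, limma) at 2000 m and -4.41 ± 0.64 (SE, adjusted p = 0.0171) at 3000 m. Without 600 m replicate 3 the differences were -3.32 (adjusted p = 0.0926) and -3.50 (0.0995). The call at 3000 m was also lost without 3000 m replicate 1 (0.0539) or 3 (0.0556), without the filter (0.0699) and with only the compared groups (0.079). That at 2000 m was also lost without 2000 m replicate 1 (0.0504) or 2 (0.0564) or the filter (0.056).

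GOAT_ENSP00000228641 fell while its 600 m libraries were closely alike. It was at 508, 554 and 528 FPKM at 600 m, at 81.3, 102 and 117 FPKM at 2000 m and at 129, 125 and 56.7 FPKM at 3000 m. The 600 m libraries lay above all others, the higher altitudes overlapped, and the difference at 3000 m was -2.43 ± 0.35 (SE, adjusted p = 0.0171, limma), with an adjusted p of 0.0933 without 600 m replicate 3, 0.0563 without the filter and 0.0748 with only the compared groups. In heart and lung this member was between 0 and 0.122 FPKM in every library. GOAT_ENSP00000232375 was at 156, 165 and 335 FPKM at 600 m, at 71.8, 28.3 and 28.2 FPKM at 2000 m and at 67.7, 166 and 68.2 FPKM at 3000 m. On its 2000 m libraries alone its muscle mean was less than 3 above heart on the log2 scale. It met the rule through the other altitudes, so its adjusted p is no support on its own. It fell by 2.56 ± 0.53 on the log2 scale at 2000 m (SE, adjusted p = 0.032, limma), while its 3000 m libraries overlapped those of 600 m. This call was lost without 2000 m replicate 2 (0.0951) or 3 (0.0881), 600 m replicate 3 (0.247) or the filter (0.0812).

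**Figure D4:**
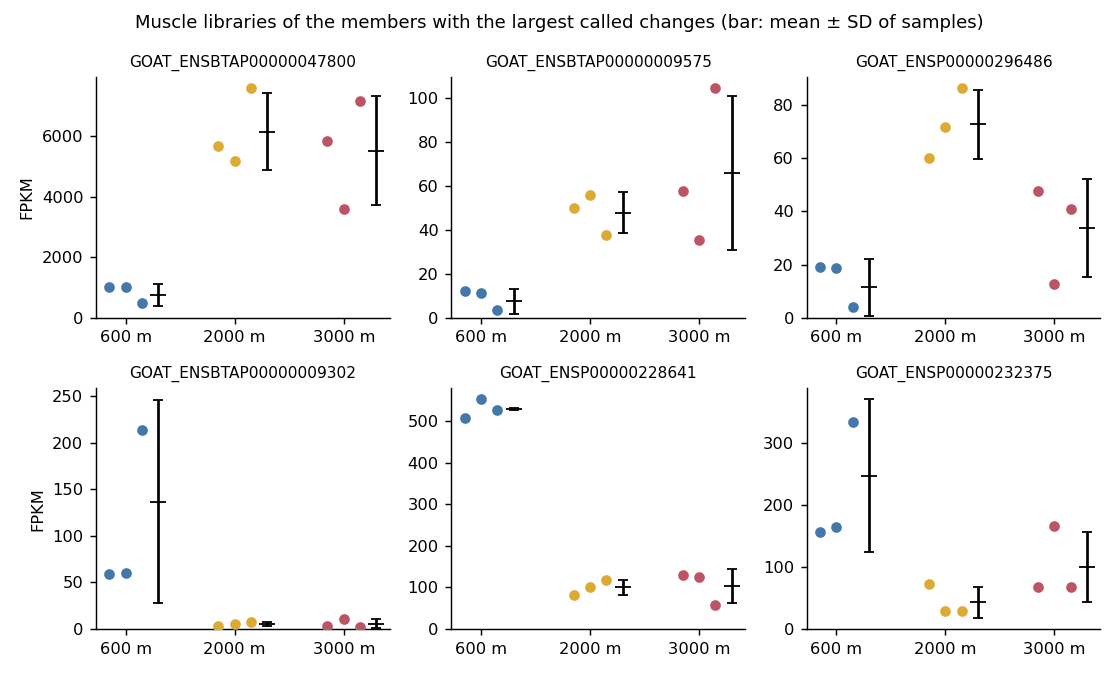
FPKM (axis from 0) of 6 members in each muscle library, points by altitude and replicate, with the mean and SD of samples beside them (n = 2 at 600 m, where replicates 1 and 2 count as 1 sample, and n = 3 otherwise). The upper row holds members that were higher above 600 m and the lower row members that were lower, with GOAT_ENSBTAP00000009302 at 59.0 to 214 FPKM at 600 m and at 2.15 to 10.95 FPKM above it.

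Between the higher altitudes, 0 of 108 members were called by limma, where 0.0084% of all genes were called. An unadjusted limma p below 0.05 was found for 19 of the 108 members, beside 8.8% of all genes. The smallest adjusted p among the members was 0.164. Of the members, 72 had a lower level at 3000 m than at 2000 m and 36 a higher level, beside 57.2% of all genes with a higher level. The median difference of the members was -0.19 on the log2 scale, beside 0.05 for all genes. GOAT_ENSP00000226209-D5 had the largest absolute difference, 3.85 ± 3.40 (SE, adjusted p = 0.783), and this value came from the libraries listed at 0. It was listed at 0 in 600 m replicates 1 and 2 and in 2000 m replicate 3, and stood at 2407 FPKM in 600 m replicate 3, 4101 and 5945 FPKM in the other 2000 m libraries and 3532, 5244 and 3930 FPKM at 3000 m. Without 2000 m replicate 3 the difference was -0.24 (adjusted p = 0.991). An exact 0 beside such levels can be a failed estimate, which was not tested here.

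The members varied more between replicates than other genes did. The median SD within an altitude was 0.385 on the log2 scale for the members, beside 0.279 for all genes tested and 0.284 for genes at 5 FPKM or more in muscle. The averaged 600 m sample was above 600 m replicate 3 in 87 of 108 members. GOAT_ENSBTAP00000041719 had the second largest spread after GOAT_ENSP00000226209-D5, with an SD of 1.73. Its libraries were at 112, 119 and 19.8 FPKM at 600 m, at 752, 320 and 219 FPKM at 2000 m and at 2041, 118 and 1518 FPKM at 3000 m, so that 3000 m replicate 2 lay within the 600 m range. It was not called in either comparison with 600 m (adjusted p = 0.145 and 0.102, limma). GOAT_ENSP00000250003 was the other member listed at 0 in a muscle library, at 18.6, 17.9 and 0 FPKM at 600 m, 53.8, 67.7 and 47.8 FPKM at 2000 m and 24.1, 159 and 90.1 FPKM at 3000 m.

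Some members share part of their ID with other entries, and whether their sequences are alike could not be checked here. The suffix -D and a number marked 10 members, and 4 members shared the rest of their ID with another entry. GOAT_ENSP00000245503 had a mean of 898 FPKM in muscle and its counterpart with the suffix -D6, also a member, had 19.6 FPKM. In the other 2 families a single entry was muscle-enriched, at 98.3 FPKM for GOAT_ENSBTAP00000048849-D10 and 401 FPKM for GOAT_ENSBTAP00000012835-D2, while their counterparts had muscle means between 0.0804 and 2.58 FPKM. How reads were divided between such entries is not known here, and their levels are uncertain to that extent.

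In heart fewer members exceeded 0.5 FPKM at 600 m than at the higher altitudes. Counting all 108, between 37 and 42 members exceeded 0.5 FPKM in a heart library of 600 m and between 54 and 62 did so in a library of 2000 m or 3000 m, while 27 to 39 and 17 to 23 were listed at 0. The same counts were not made for all genes, so they are not read as particular to the members. The filter for testing, a mean above 0.5 FPKM over the heart libraries, was passed by 55 members. Of these, 40 exceeded 0.5 FPKM at each altitude and 14 passed through a higher altitude while at or below 0.5 FPKM at 600 m, so that they had to differ and the counts are no support on their own. With the same limit, 78.2% of the 55 had their lowest mean at 600 m, beside 50.0% of all genes tested in heart. All 600 m libraries lay below every higher library in 41.8% of the 55, beside 15.4%, and above every higher library in 0.0%, beside 7.42%. At 2000 m, 22 of the 55 were higher and 1 lower than at 600 m (41.8% called by limma, beside 22.5% of all 12363 genes tested, 16.3% higher and 6.18% lower), and at 3000 m 12 were higher and 1 lower (23.6%, beside 11.1%, 7.38% higher and 3.75% lower). Of the 40 members above 0.5 FPKM at each altitude, 13 and 5 were called higher. The share called among all genes above 0.5 FPKM at each altitude was not counted, so these 2 counts have no like background. The count at 3000 m fell to 1 without 3000 m replicate 1, to 6 without 3000 m replicate 3, to 8 without 600 m replicate 2 and to 7 without 600 m replicate 3. Calls over all 12363 genes fell as well, from 1375 to 14, 312, 404 and 301 in these fits.

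The largest called rises in heart were those of the members most abundant in muscle. GOAT_ENSP00000325239 was listed at 0 in each 600 m heart library and was at 5.45, 14.7 and 12.3 FPKM at 2000 m and at 6.58, 6.07 and 7.38 FPKM at 3000 m. Its fitted log2 difference, which depends on the added 1 FPKM and is no bound, was 3.47 ± 0.28 (SE, adjusted p = 0.00147, limma) at 2000 m and 2.94 ± 0.28 (SE, adjusted p = 0.00426) at 3000 m. Since it passed the filter through the higher altitudes alone, these adjusted p-values are no support on their own. GOAT_ENSP00000361636 was at 0, 3.15 and 3.00 FPKM at 600 m, at 17.4, 23.6 and 28.3 FPKM at 2000 m and at 22.6, 22.7 and 15.3 FPKM at 3000 m. No library of 600 m reached the lowest of the higher altitudes, and the difference was 3.22 ± 0.48 (SE, adjusted p = 0.00419, limma) at 2000 m and 3.03 ± 0.48 (SE, adjusted p = 0.0138) at 3000 m, where it was lost without 3000 m replicate 1 (0.0559).

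In heart, 1 member was called lower in each comparison. GOAT_ENSBTAP00000014219, at 159, 132 and 161 FPKM in heart at 600 m and at 89.9, 92.8 and 106 FPKM at 3000 m, fell by 0.64 ± 0.14 on the log2 scale (SE, adjusted p = 0.0257, limma). The groups did not overlap, and the call was lost without any 1 of the 3000 m replicates 1 to 3 or 600 m replicate 3 (adjusted p = 0.0959, 0.058, 0.0537 and 0.0769), with the replicate number as a block (0.0517) and when only the compared groups were fitted (0.0599). GOAT_ENSP00000308610 was at 8.91, 12.5 and 13.4 FPKM at 600 m and at 6.36, 6.14 and 3.89 FPKM at 2000 m, a fall of 0.97 ± 0.23 (SE, adjusted p = 0.0191, limma), which was lost without 2000 m replicate 3 (0.0607) or 600 m replicates 2 (0.0575) or 3 (0.0625).

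For the members most abundant in muscle, the level in heart and lung was also expressed as a percentage of the muscle level. Each level was divided by the mean muscle level of the same altitude for the 27 members at 500 FPKM or more in muscle, a bound chosen after the values were seen. In heart the median percentage over the 27 members was 0.0086% to 0.0243% in the libraries of 600 m and 0.0550% to 0.107% in those of the higher altitudes, and 5 to 9 members against 0 to 1 were listed at 0. GOAT_ENSP00000361636 stood at 0.00479% at 600 m, 0.0419% at 2000 m and 0.0459% at 3000 m. GOAT_ENSP00000325239 stood at 0, 0.0547% and 0.0447%, and GOAT_ENSP00000380476 at 0.00583%, 0.0581% and 0.0582%. These 3 members, which are named elsewhere for their level or changes, were close to each other at the higher altitudes, while GOAT_ENSP00000378669, between them by muscle level, stood at 11.8%, 9.23% and 16.4%. Over the 27 members the quartiles were 0.0568% and 0.834% at 2000 m and 0.0493% and 1.04% at 3000 m.

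The 27 members fell into a low and a spread-out part in heart. A bound of 0.02% of the muscle level in heart at 600 m, chosen after the values were seen, separated 15 members from the other 12. Since this cut used the 600 m heart values, a contrast of these members with 600 m in heart is set in part by the choice and is not drawn. At the higher altitudes, 13 of the 15 lay between 0.03% and 0.12% in heart at 2000 m, and 13 at 3000 m, while their muscle means spanned a 70.3-fold range. Their quartiles were 0.0538% and 0.0711% at 2000 m and 0.0430% and 0.0659% at 3000 m. The other 12 members ranged from 0.105% to 9.84% at 2000 m and from 0.103% to 16.4% at 3000 m.

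**Figure D5:**
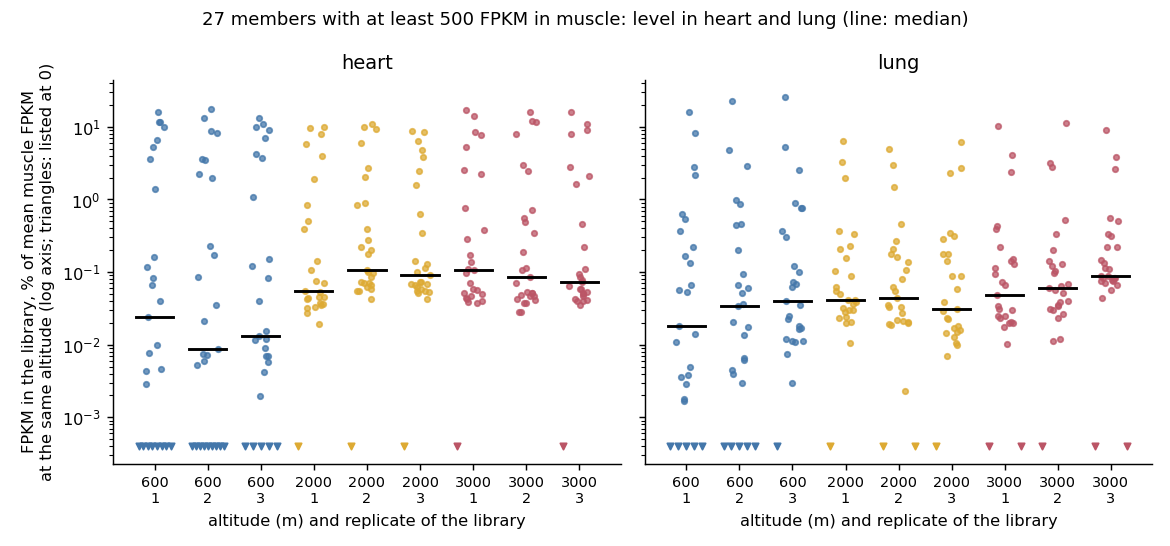
FPKM in each heart (left) and lung (right) library as a percentage of the mean muscle FPKM at the same altitude, on a log axis, for the 27 members at 500 FPKM or more in muscle, with values listed at 0 as triangles at the lower edge and the library median as a line. In heart the medians are 0.0086% to 0.0243% at 600 m and 0.0550% to 0.107% above it, where 12 (2000 m) and 13 (3000 m) of the 27 members lie between 0.02% and 0.1% by their means and the others spread upward, and in lung the medians overlap between altitudes.

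In lung the pattern was weaker. The library medians over the 27 members were 0.0180% to 0.0402% at 600 m and 0.0308% to 0.0890% above it, and they overlapped, whereas the lower quartiles did not, at 0.00232% to 0.0142% and 0.0155% to 0.0755%. Over all 108 members, 31 to 34 were listed at 0 in the lung libraries of 600 m and 19 to 24 in those of the higher altitudes, and this was not counted for all genes. The 15 members with the low percentage in heart had lung medians of 0.00987%, 0.0272% and 0.0458% of the muscle level at 600 m, 2000 m and 3000 m.

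The low levels of other tissues' genes were counted in the same way. Of the 87 genes that the rule selects for heart, 8 were at 500 FPKM or more there, and the lower quartile of their level in lung, relative to heart, was 0.00483% to 0.0192% at 600 m and 0.0283% to 0.0667% above it. Their median in lung overlapped, at 0.192% to 0.300% and 0.0885% to 0.357%, as did their quartile (0.0301% to 0.0553% and 0.0523% to 0.157%), median and number at 0 in muscle. Of the 488 genes selected for lung, 27 were at 500 FPKM or more, and 4 to 6 of them were listed at 0 in muscle at 600 m against 0 to 2 above it, and 4 to 7 against 1 to 3 in heart. Their medians overlapped in both tissues, in muscle at 2.16% to 2.27% and 1.03% to 2.61%. Relative depth in heart was 0.820 to 0.884 at 600 m, 0.942 to 0.962 at 2000 m and 0.815 to 0.923 at 3000 m, so that every 2000 m library was deeper than those of 600 m. The part of depth in these low levels was not tested.

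In lung, 53 members passed the filter, of which 41 exceeded 0.5 FPKM at each altitude and 10 passed through a higher altitude alone. At 2000 m, 4 were higher and 3 lower than at 600 m (13.2% called by limma, beside 5.10% of all 13965 genes tested, 2.22% higher and 2.88% lower), and at 3000 m 1 was higher (1.89%, beside 2.84%, 0.73% higher and 2.11% lower). Of the 41 members above 0.5 FPKM at each altitude, 2 were called higher and 3 lower at 2000 m and 0 at 3000 m by the same fit. The share called among all genes of that kind was not counted. The members that passed through a higher altitude alone had to differ. At 2000 m the count was 0 without any 1 of the 2000 m replicates 1 to 3 or 600 m replicates 2 and 3. Calls over all genes fell from 712 to 14, 8, 1, 5 and 9 in these fits. After quantile normalization 1 member was higher and 3 lower, beside 649 of all genes called. At 3000 m the count of members was 0 without 3000 m replicate 2 or 600 m replicates 2 or 3 and 8 without 600 m replicate 1. Of all 13965 genes, 20, 0, 0 and 1537 were called there, against 396 in the reported fit.

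GOAT_ENSP00000325239 was called in lung at both altitudes. Its 600 m mean was 0.344 FPKM in lung and 0 in heart, so that it passed the filter only through the higher altitudes and its adjusted p-values are no support on their own. It was at 0.151, 0.251 and 0.631 FPKM in lung at 600 m, at 3.96, 3.96 and 2.97 FPKM at 2000 m and at 3.49, 5.34 and 11.7 FPKM at 3000 m. The 600 m libraries lay below all others and the higher altitudes overlapped. The log2 difference was 1.79 ± 0.34 (SE, adjusted p = 0.0383, limma) at 2000 m and 2.42 ± 0.34 (SE, adjusted p = 0.035) at 3000 m. GOAT_ENSP00000380476 rose as well, from 7.06, 3.51 and 3.20 FPKM at 600 m to 8.45, 13.2 and 16.9 FPKM at 2000 m, by 1.33 ± 0.31 (SE, adjusted p = 0.0472, limma). The calls of both members at 2000 m were lost without any 1 of the 2000 m replicates 1 to 3 or 600 m replicates 2 and 3 (adjusted p up to 0.132 and 0.162), and that of GOAT_ENSP00000325239 at 3000 m without 3000 m replicate 2 (0.0554) or 600 m replicate 2 (0.154) or 3 (0.117).

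GOAT_ENSP00000261883 moved in opposite directions in lung and muscle at 2000 m. On its 600 m libraries alone its muscle mean was less than 3 above lung on the log2 scale, so it met the rule through the higher altitudes. A high muscle level beside a low lung level is what the rule selects, so the calls of this member are no support on their own. In lung it was at 2.55, 3.18 and 10.6 FPKM at 600 m and at 0.413, 0.684 and 0.448 FPKM at 2000 m, a fall of 1.88 ± 0.40 (SE, adjusted p = 0.042, limma). In muscle it was at 16.9, 19.3 and 13.4 FPKM at 600 m and at 106, 75.8 and 76.2 FPKM at 2000 m, a rise of 2.38 ± 0.53 (SE, adjusted p = 0.038, limma). Leaving out any 1 muscle sample of these altitudes ended the call in muscle (adjusted p = 0.0599 to 0.261). GOAT_ENSP00000308610, which fell in heart, was also lower in lung at 2000 m, at 9.64, 11.5 and 12.4 FPKM at 600 m against 6.86, 4.10 and 3.49 FPKM, a fall of 1.10 ± 0.23 (SE, adjusted p = 0.0413, limma). Both falls in lung lost their call without any 1 of the 2000 m replicates or 600 m replicates 2 and 3 (adjusted p up to 0.124 and 0.145).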

How the data were processed

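RNA-seq of heart, lung and skeletal muscle was analysed in 27 libraries, 3 per tissue and altitude, grouped by their labels. The authors aligned reads to the goat genome CHIR_1.0 with TopHat2 2.0.11 and estimated FPKM with Cufflinks 2.2.1 (versions from the submitters' processing notes). The methods state this for the 600 m and 3000 m animals, and do not say how the 2000 m libraries were handled. Values were deposited as log2(FPKM + 1), and FPKM was recovered by reversing the logarithm. They carry no counts, so the depth is unknown and values of 0 have no floor. The labels do not say that each library came from a separate animal, so p-values measure only the spread between these samples, which may be technical.

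Altitude was tested within each tissue by limma 3.58.1 (R 4.3.3, empirical Bayes with trend, two-sided) on log2(FPKM + 1), a scale that understates the change of low genes. Genes with a mean above 0.5 FPKM in the tissue entered, p-values were Benjamini-Hochberg adjusted over all of them, and called means an adjusted p of at most 0.05. This test took the place of the Cuffdiff test of the study. Replicates 1 and 2 of muscle at 600 m were averaged as 1 sample (26 samples in all). Alternatives were a pseudocount of 0.1, no filter, median-of-ratios scaling, quantile normalization, a fit of the compared groups alone, a replicate block, separate 600 m replicates and leaving out each sample. Leaving out values of 0 beside high values was added after seeing the data. The scripts were tested on simulated data.

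Replicate numbers did not pair the samples: deviations of same-numbered samples correlated from -0.199 to 0.281, and those of differently numbered ones from -0.206 to 0.220. The members, lists and tests were chosen with earlier results of these data known. Named were, per comparison, the 2 called members with the largest rise and the 2 with the largest fall (with none called, the largest absolute difference), and the extremes of level, tissue difference and spread.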

Additional observations from a re-analysis of the deposited data

Results flagged for a closer look

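For 3 members the samples of a tissue all moved one way between altitudes while those of another tissue all moved the opposite way, and the differences between tissues were not tested. GOAT_ENSP00000232375 had a mean log2 difference between 2000 m and 600 m of -2.56 in muscle and 0.68 in heart. GOAT_ENSBTAP00000014219 had a mean log2 difference between 3000 m and 600 m of -0.64 in heart and 0.56 in lung, where its level stayed at or below 1.28 FPKM. For GOAT_ENSP00000261883 the difference from 600 m was 1.71 in muscle and -1.75 in lung at 3000 m, and 2.38 in muscle and -1.88 in lung at 2000 m. This member on its 600 m libraries alone, and GOAT_ENSP00000232375 on its 2000 m libraries alone, were below the tissue difference of 3. The contrasts of these members are therefore set in part by the choice.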

How the results depend on the processing

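Calls over all genes shifted between fits as well. In muscle at 3000 m against 600 m, the 250 genes called became 39 without the filter, 16 with only the compared groups and 901 with the 600 m replicates separate. In muscle at 2000 m the 709 genes called became 85 without the filter and 388 with only the compared groups. Called members are given below, with the reported count first. In muscle at 3000 m against 600 m, the 10 called members became 0 without the filter on low values, 0 when only the compared groups were fitted, 19 with the 600 m replicates separate and 0 to 25 when a sample was left out (22 without 3000 m replicate 2). In muscle at 2000 m the 28 became 2 without the filter, 17 with only the compared groups and 1 to 32 when a sample was left out. In heart at 3000 m the 13 became 1 to 17 when a sample was left out, and at 2000 m the 23 became 12 after quantile normalization. Over all genes, 1375 became 14 to 2333 and 2781 became 2464 in the same fits. In lung at 3000 m the 1 called member became 3 with a pseudocount of 0.1, 0 with only the compared groups and 0 to 8 when a sample was left out. Over all genes, 396 became 433, 1 and 0 to 1537. In lung at 2000 m the 7 called members became 0 without the filter, 4 after quantile normalization, 1 with only the compared groups and 0 to 9 when a sample was left out. Over all genes, 712 became 233, 649, 75 and 1 to 1884. With the replicate number as a block, which marks only a shared number, the counts of members were 15 and 26 in muscle at 3000 m and 2000 m, 11 and 20 in heart, and 0 and 0 in lung. Those over all genes were 452 and 935 in muscle, 917 and 2371 in heart, and 2 and 15 in lung. For the 20 named values, 169 alternatives kept direction and call and 78 kept direction alone, and the difference of GOAT_ENSP00000226209-D5 between 3000 m and 2000 m turned to -0.24 both without 2000 m replicate 3 and with its values of 0 left out, and was 6.03 without 2000 m replicate 2. The cause of these shifts was not tested, apart from the number of genes tested or samples fitted, which some alternatives change by construction. Membership shared 101 to 108 genes with the reported list under each of 6 alternatives, and the pseudocount of 0.1 selected 135 genes. Where a fit left a lone 600 m sample in muscle, that sample is assumed to vary like the others. Few samples and unknown depth limit all calls.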
